A study of Rattus norvegicus with 6 samples.

Results

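A set of 9 interferon-induced genes is described here in rat hippocampal neurons in which Ncoa3 had been silenced. They were taken as the probe sets of the deposited table whose platform gene symbol was Oas1a, Oasl, Mx1, Mx2, Ifit2, Ifit3, Stat2, Irf7 or Irf9, with the brightest probe set used where a gene had several. All 9 of the 9 listed genes were measured, each on a single probe set, among 18166 genes in the table with a symbol of their own. The cells were primary neurons from hippocampi of rat embryos at day 18, kept with 10 µM of 5-fluorodeoxyuridine (FUDR), a nucleoside analogue that blocks dividing cells. They were infected at day 4 in vitro with adeno-associated virus (1800000 infectious units per ml) and total RNA was isolated at day 14. The virus expressed an shRNA (a short hairpin RNA that triggers degradation of its target) against Ncoa3 in 3 arrays, the Ncoa3 shRNA group, and a control shRNA in 3 arrays, the control shRNA group. Both groups therefore carried the virus, an shRNA and FUDR and uninfected cells are not among the groups. Each of 3 numbered experiments supplied 1 array to each group.

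Interferons are secreted proteins that cells release when they sense viral nucleic acid. Type I interferon binds the receptor pair Ifnar1 and Ifnar2, whose kinases Jak1 and Tyk2 phosphorylate Stat2. Stat2 and Irf9 are subunits of the complex ISGF3, which binds the interferon-stimulated response element (ISRE) in front of target genes. Those targets include the other genes described here. Oas1a belongs to the 2'-5'-oligoadenylate synthetases, which bind double-stranded RNA and make the second messenger that activates RNase L. Oasl is a related protein. Mx1 and Mx2 are dynamin-like GTPases that block viral replication, Ifit2 and Ifit3 are tetratricopeptide-repeat proteins that restrain viral RNA and its translation, and Irf7 is the transcription factor that drives further interferon production. Ncoa3 is a coactivator of nuclear receptors, and the comparison asks how expression differed once it was silenced.

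Promoter windows (250 bases before to 50 bases after the annotated start of a gene, RefSeq, build GRCr8, in the direction of transcription) were on hand for 7 of the 9 genes. A core of the ISRE, GAAA and GAAA with any 2 bases between them, or TTTC and TTTC with 2 bases between them on the other strand, was in 3 of those 7 windows, against 3.77% of 27457 windows of the same length over all genes. The windows with the core are shown because it is the letters that ISGF3 and the Irf proteins are known to bind, together with those of Oas1i and Oas1b, the genes next to or near Oas1a whose windows are most like it. Capitals mark the cores.
Oas1a, chr12:41330216-41330515, plus strand: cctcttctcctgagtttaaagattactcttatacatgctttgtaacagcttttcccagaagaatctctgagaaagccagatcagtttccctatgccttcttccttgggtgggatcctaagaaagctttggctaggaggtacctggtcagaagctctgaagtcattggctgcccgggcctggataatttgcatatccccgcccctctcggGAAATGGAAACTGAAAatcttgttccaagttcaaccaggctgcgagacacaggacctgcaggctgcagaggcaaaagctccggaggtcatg
Oas1i, chr12:41284976-41285275, plus strand: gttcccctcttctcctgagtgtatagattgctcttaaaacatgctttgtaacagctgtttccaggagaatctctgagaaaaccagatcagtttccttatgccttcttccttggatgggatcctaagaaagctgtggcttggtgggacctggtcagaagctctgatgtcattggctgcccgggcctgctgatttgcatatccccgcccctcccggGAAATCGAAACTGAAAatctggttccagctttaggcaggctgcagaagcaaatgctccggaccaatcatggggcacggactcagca
Oas1b, chr12:41395803-41396102, minus strand: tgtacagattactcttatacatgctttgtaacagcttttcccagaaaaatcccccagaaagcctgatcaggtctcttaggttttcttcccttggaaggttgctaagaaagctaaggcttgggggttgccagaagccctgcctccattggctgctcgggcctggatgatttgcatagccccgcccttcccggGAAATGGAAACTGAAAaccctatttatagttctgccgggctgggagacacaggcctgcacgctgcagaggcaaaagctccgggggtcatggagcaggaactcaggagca
Ifit3, chr1:241527076-241527375, plus strand: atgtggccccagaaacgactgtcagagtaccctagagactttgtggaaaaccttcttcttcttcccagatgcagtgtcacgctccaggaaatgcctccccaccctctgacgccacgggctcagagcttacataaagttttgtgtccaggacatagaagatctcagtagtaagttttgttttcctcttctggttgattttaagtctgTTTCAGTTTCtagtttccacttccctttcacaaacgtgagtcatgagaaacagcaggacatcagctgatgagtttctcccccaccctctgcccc
Irf7, chr1:205799974-205800273, minus strand: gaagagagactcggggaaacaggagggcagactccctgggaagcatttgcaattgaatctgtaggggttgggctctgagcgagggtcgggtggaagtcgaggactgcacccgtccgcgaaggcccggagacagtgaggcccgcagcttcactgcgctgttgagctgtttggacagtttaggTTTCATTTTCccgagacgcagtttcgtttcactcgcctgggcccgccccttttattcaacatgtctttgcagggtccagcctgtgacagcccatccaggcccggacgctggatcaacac
The Oas1a window held 2 overlapping cores that ran from 41 to 26 bases before the start. The Oas1i window, 80.9% identical with that of Oas1a in a global alignment, held 2 cores from 36 to 21 bases before the start, and the Oas1b window (73.7% identical) held 2 from 59 to 44 bases before it. Ifit3 had 1 core from 44 to 35 bases before its start and Irf7 had 1 from 69 to 60 bases before its start. These letters were not found in the windows of Oasl, Mx1, Stat2 and Irf9. A second motif, TTCNNNGAA, the palindromic site of STAT dimers, was in the windows of Oas1a and Irf9 (2 of 7), against 8.68% of all windows. A match is a description of the letters, not of a bound site.

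The deposited values are log2 signals. The array medians ran from 6.81 to 6.97 with Ncoa3 shRNA and from 7.08 to 7.25 with control shRNA. Between 2 arrays of one group, 8680 to 13979 of the 36685 probe sets carried the same value, against 0 to 2 between arrays of different groups, and a processing step that differed between the groups cannot be told apart from the shRNA. The median gene differed by -0.25 (Ncoa3 shRNA minus control shRNA, deposited log2). Changes are therefore given after quantile normalization, which gives all 6 arrays the same distribution, and their median over all genes was 0.01. Ncoa3 itself (probe set 17769041) had deposited log2 signals of 7.43, 7.43 and 7.39 with Ncoa3 shRNA, against 8.79, 8.88 and 8.37 with control shRNA in experiments 1, 2 and 3. After quantile normalization it was 1.96-fold lower. The number of arrays limits the precision, and with 3 arrays against 3 no exact permutation test can go below p = 0.1.

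Of the 9 genes, 1 fell, 1 rose and 7 did not pass the test between the groups. Oas1a was 2.11-fold lower with Ncoa3 shRNA, Mx2 was 1.24-fold higher, and the remaining 7 genes lay between -0.21 and 0.16 on the log2 scale. The median change of the 9 genes was 0.04. Genes were tested with limma after quantile normalization, two-sided and without the experiment as a block. A gene passed when its p, adjusted by Benjamini-Hochberg across the 18166 genes, was at most 0.05. By that rule 3548 genes (19.5%) passed, 1905 higher (10.5%) and 1643 lower (9.04%), so the 2 calls among 9 genes (22.2%) are near the share over all genes. Of genes dimmer than the median gene 28.6% passed, and 7 of the 9 are among them. In the deposited values the groups did not overlap for 7 of the 9 genes, 6 lower and 1 higher, where 55.6% of all genes lay wholly lower and 5.36% wholly higher. After quantile normalization 2 of the 9 genes lay wholly lower (19.0% of all genes) and 2 wholly higher (21.5%).

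**Figure D1:**
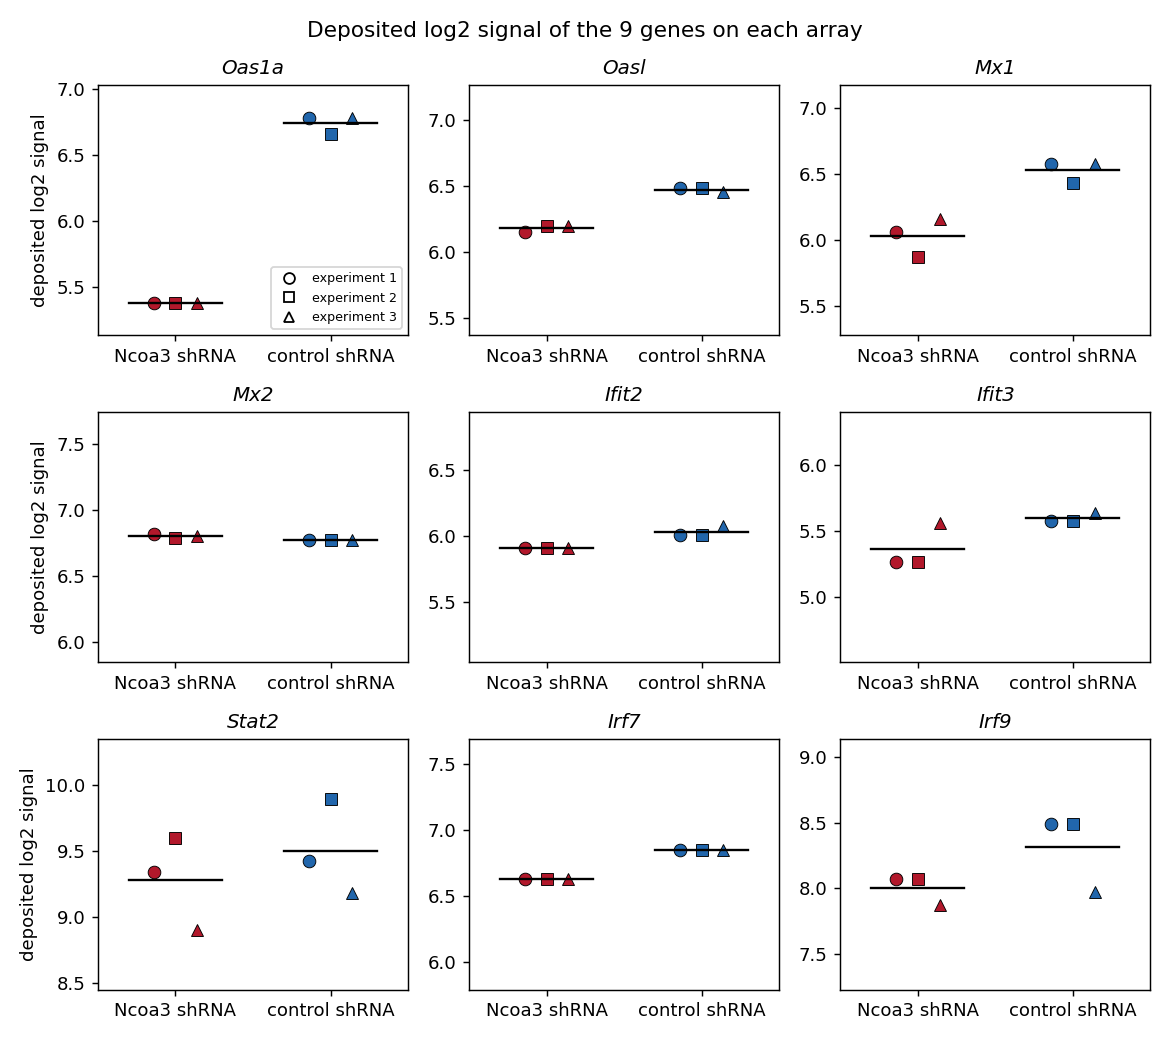
Deposited log2 signal of each of the 9 genes (vertical axis, each panel spanning the same range) on the 3 Ncoa3 shRNA arrays (red, left) and the 3 control shRNA arrays (blue, right), with symbols for the experiment and a bar at the group mean. Oas1a lies at 5.38 on all 3 Ncoa3 shRNA arrays, against 6.66 to 6.79 on the control shRNA arrays, and Stat2 has the widest spread within both groups (SD 0.354 with Ncoa3 shRNA and 0.365 with control shRNA).

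Oas1a (probe set 17674199) stood apart from the other 8 genes in the size of its change. Its deposited log2 signal was 5.38 on each of the 3 Ncoa3 shRNA arrays, against 6.79, 6.66 and 6.79 with control shRNA in experiments 1, 2 and 3. All Ncoa3 shRNA arrays were thus below all control shRNA arrays, by over 1 log2 unit. Quantile normalized, it changed by -1.08 ± 0.0653 (SE; 3 arrays in each group; limma's adjusted p = 5.98e-04), and it was -1.12, -1.01 and -1.10 in experiments 1, 2 and 3. Only 10 of the 18166 genes had a larger fall. Of the 13 genes that fell by at least 1 log2 unit, 10 were dimmer than the median gene, as Oas1a was, and 5 were olfactory or vomeronasal receptors. Of all 1344 such receptor genes measured, whose products are known from the nose, 36.5% passed the test. The identical value on the 3 Ncoa3 shRNA arrays leaves the spread there unmeasured, and without experiment 2 the adjusted p was 0.0502, when 0 genes passed limma's test and 3071 had an unadjusted p under 0.05.

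Oasl (probe set 17678723), the second synthetase-like gene, did not pass the test. It had deposited log2 signals of 6.15, 6.20 and 6.20 with Ncoa3 shRNA, against 6.48, 6.48 and 6.45 with control shRNA. The groups did not overlap there, and the distance was close to the offset of the median gene. After quantile normalization the groups overlapped and the change was -0.0014 ± 0.0722 (SE; adjusted p = 0.992).

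The Mx genes, which lie close together on chromosome 11, stood on opposite sides of 0. Mx1 (probe set 17668239) had deposited log2 signals of 6.06, 5.87 and 6.16 with Ncoa3 shRNA, against 6.58, 6.43 and 6.58 with control shRNA. It was lowest in experiment 2 in both groups, and the groups did not overlap. Its change after quantile normalization was -0.21 ± 0.0747 (SE; limma's adjusted p = 0.104), with an adjusted p of 0.0274 when the experiment was a block. Mx2 (probe set 17664996) had deposited log2 signals of 6.82, 6.79 and 6.81 with Ncoa3 shRNA, against 6.77 on each control shRNA array. The deposited difference was thus 0.03, and the gene was higher mainly relative to the offset. After quantile normalization Mx2 rose by 0.31 ± 0.0755 (SE; adjusted p = 0.0353, and 0.00429 with the block), with 0.33, 0.29 and 0.32 in experiments 1, 2 and 3. That call was lost without control shRNA replicate 1 (adjusted p = 0.100), 2 (0.0852) or 3 (0.0568), without Ncoa3 shRNA replicate 1 (0.122) or 2 (0.127), and without experiment 1 (0.330) or 2 (0.295).

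The Ifit genes did not pass the test. Ifit2 (probe set 17625115) had a deposited log2 signal of 5.91 on each Ncoa3 shRNA array, against 6.01, 6.01 and 6.07 with control shRNA. It was lower by less than the median gene, so its change after quantile normalization was positive, 0.16 ± 0.0593 (SE; adjusted p = 0.117), with an adjusted p of 0.0211 when the experiment was a block. Ifit3 (probe set 17625119) had deposited log2 signals of 5.26, 5.26 and 5.56 with Ncoa3 shRNA, against 5.58, 5.58 and 5.64 with control shRNA. The array of experiment 3 was the highest in both groups. After quantile normalization its change was 0.05 ± 0.0552 (SE; adjusted p = 0.611), at -0.0041, -0.03 and 0.18 in experiments 1, 2 and 3.

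The transcription factor genes of the response did not pass the test either. Stat2 (probe set 17825596) had deposited log2 signals of 9.34, 9.60 and 8.90 with Ncoa3 shRNA, against 9.42, 9.90 and 9.18 with control shRNA. The groups overlapped, and both ran highest in experiment 2 and lowest in experiment 3. Its change after quantile normalization was 0.04 ± 0.220 (SE; adjusted p = 0.930). Irf9 (probe set 17698887), the DNA-binding subunit of ISGF3, had deposited log2 signals of 8.07, 8.07 and 7.87 with Ncoa3 shRNA, against 8.49, 8.49 and 7.97 with control shRNA. Its groups overlapped too, with the lowest value of each in experiment 3, and its change was -0.03 ± 0.175 (SE; adjusted p = 0.937). Irf7 (probe set 17638314) had a deposited log2 signal of 6.63 on each Ncoa3 shRNA array, against 6.85 on each control shRNA array. Its spread within a group after quantile normalization comes from the normalization alone, and its change there was 0.07 ± 0.0752 (SE; adjusted p = 0.591).

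**Figure D2:**
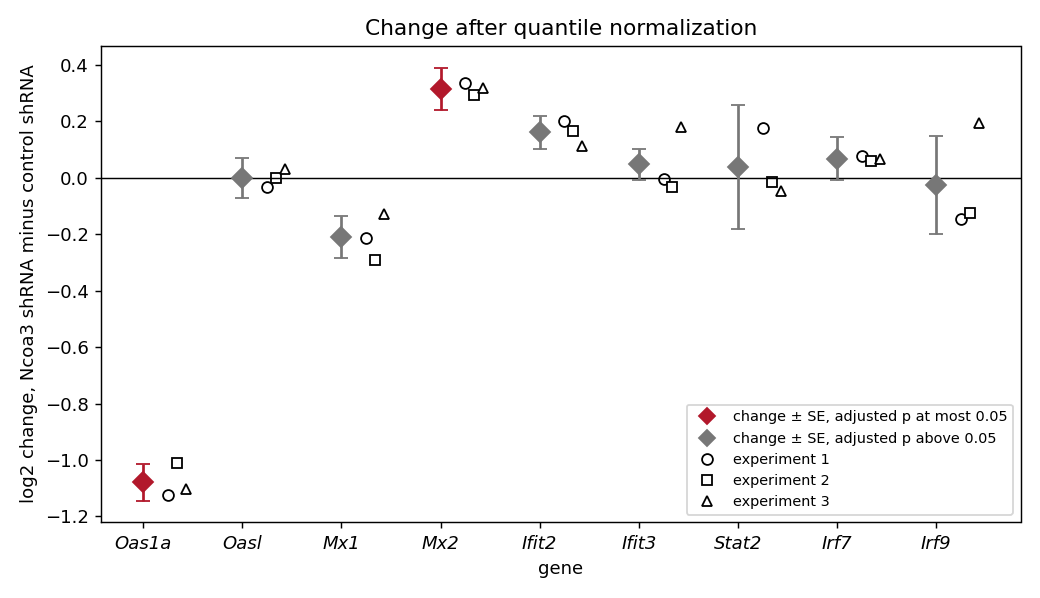
Log2 change (Ncoa3 shRNA minus control shRNA, vertical axis) after quantile normalization for each gene, as a diamond with its SE (n = 3 per group; red where limma's adjusted p was at most 0.05), with the change in each experiment as open symbols to its right. Oas1a lies at -1.08 with all 3 experiments at or below -1.01, Mx2 at 0.31, and the experiments of Oasl, Ifit3, Stat2 and Irf9 fall on both sides of 0.

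The direction of 4 of the 9 genes depended on how the offset between the groups was treated. In the deposited values 8 of the 9 differences were negative, and 6 genes passed limma's test there (5 lower, 1 higher), where 47.2% of all genes passed, 43.3% lower and 3.97% higher. With the experiment as a block in the deposited values it was again 5 lower and 1 higher, where 60.2% of all genes passed, 55.9% lower and 4.33% higher. Ifit2, Ifit3, Stat2 and Irf7 were negative in the deposited values and positive after quantile normalization, centring on the array median or cyclic loess. Oas1a, Oasl, Mx1 and Irf9 were negative, and Mx2 positive, under each of these 4 scalings. With the experiment as a block after quantile normalization 2 of the 9 genes rose and 2 fell, where 39.3% of all genes passed, 20.8% higher and 18.6% lower.

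**Figure D3:**
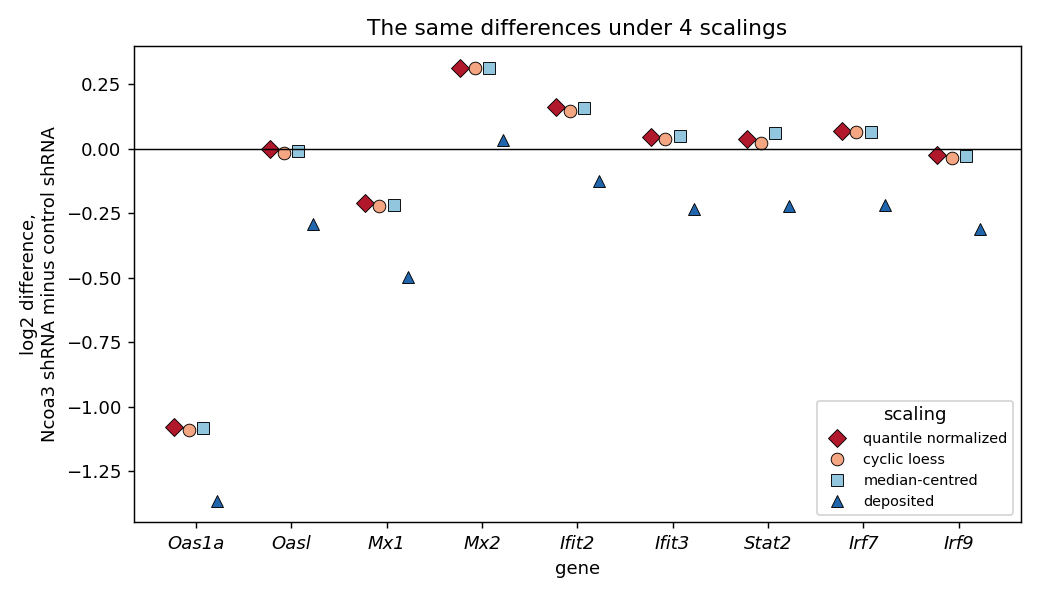
Log2 difference (Ncoa3 shRNA minus control shRNA, vertical axis) of each gene under quantile normalization, cyclic loess, centring on the array median, and as deposited. The first 3 scalings lie close together for each gene, and the deposited difference lies below them, at -1.36 for Oas1a and 0.03 for Mx2.

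Relatives and neighbours of these genes moved in both directions. Of 16 Oas, Oasl, Ifit and Mx genes with a probe set, 8 are Oas1 genes from one stretch of chromosome 12. Of these 8, 3 rose, 2 fell and 3 did not pass, where 19.5% of all genes passed. All 8 were dimmer than the median gene, and 28.6% of all such dimmer genes passed. Oas1d, Oas1e, Oas1h, Oas1b, Oas1k, Oas2, Oasl2 and Ifit1 were named here after their values were seen. Oas1i (probe set 17674190), whose promoter window is most like that of Oas1a, had deposited log2 signals of 6.22, 6.41 and 6.56 with Ncoa3 shRNA, against 6.01, 6.01 and 6.07 with control shRNA. All its Ncoa3 shRNA arrays were above all its control shRNA arrays, the opposite order to Oas1a. Its change after quantile normalization was 0.65 ± 0.0658 (SE; limma's adjusted p = 0.00227). Oas1f rose by 0.70 ± 0.0558 (SE; adjusted p = 0.00118) and Oas1e by 0.49 ± 0.0755 (SE; adjusted p = 0.00857). Without experiment 1 or 2 the calls of Oas1i (adjusted p = 0.0591 and 0.0886) and Oas1f (0.0553 and 0.0570) were lost. Oas1d, the neighbour between Oas1i and Oas1a, fell by 0.47 (adjusted p = 0.00102), while Oas1h stood at 0.03, Oas1b at 0.04 ± 0.227 (SE) and Oas1k at -0.17, none of them past the test. Oas2 stood at -0.07 and Oasl2 at 0.05. With the experiment as a block Oas1k (adjusted p = 0.0158) and Oas2 (0.0491) passed as lower. Oas2 had a single deposited value within each group. Of the Ifit genes on chromosome 1, Ifit1 rose by 0.43 ± 0.0545 (SE; adjusted p = 0.00467) with the same deposited value on all 3 Ncoa3 shRNA arrays. The Oas1 genes are close copies of each other, the probe sequences were not used here, and probe sets of copies can pick up each other's transcripts, so signal cannot be assigned to one copy with certainty.

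**Figure D4:**
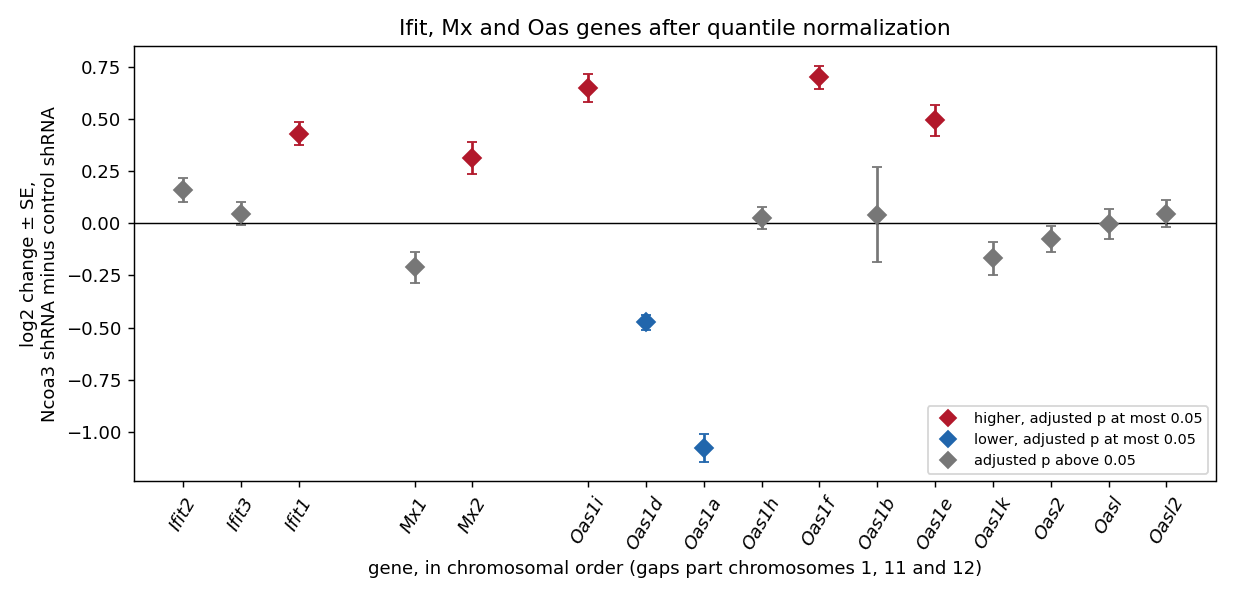
Log2 change after quantile normalization (Ncoa3 shRNA minus control shRNA, vertical axis; bars are SE, n = 3 per group) of the measured Ifit, Mx, Oas and Oasl genes in their order along chromosomes 1, 11 and 12, with gaps between chromosomes. Red and blue mark genes that passed limma's test as higher or lower, and on chromosome 12 Oas1a at -1.08 stands near Oas1i at 0.65, Oas1d at -0.47 and Oas1f at 0.70.

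Of 117 other measured genes of the interferon pathway, 16 rose, 12 fell and 89 did not pass, which is 23.9% called against 19.5% of all genes. Their median change was 0.04. Of these genes 83 were dimmer than the median gene, and 25 had a single deposited value within each group. Among the 28 genes that passed, 25 were dimmer than the median gene, and 7 had such a single value in each group. Over all genes, 28.6% of those dimmer than the median gene passed and 10.4% of those brighter, so the share here is not read as an excess. The lists were chosen for their role in the pathway with results of these data known. With the experiment as a block 33 rose and 21 fell, where 20.8% of all genes rose and 18.6% fell. Without any further scaling 8 passed as higher and 59 as lower, where 3.97% of all genes were higher and 43.3% lower. Leaving out 1 array of experiment 1 or 2 left 14 or 15 calls, and leaving out both arrays of experiment 3 gave 65. Without experiment 1 or without experiment 2, limma called 0 of them, with 22 and 20 at an unadjusted p under 0.05. Among the genes brighter than the median gene tested alone, 0 of 34 passed, with 6 at an unadjusted p under 0.05.

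Of 9 measured interferon ligand genes 1 rose, 2 fell and 6 did not pass, which is 33.3% called against 19.5% of all genes. Of the 9, 7 were dimmer than the median gene. Ifna5 rose by 0.35 (limma's adjusted p = 0.0454), and Ifna16l1 and Ifna1 fell by 0.35 (0.00173) and 0.19 (0.0294). In the deposited values Ifna5 differed by 0.064 (adjusted p = 0.752) and its groups overlapped. All 3 genes encode type I interferons and all 3 had deposited means under 6. Ifna16l1 had a single deposited value within each group, so only the normalization gave its arrays a spread. Of 5 receptor genes 0 rose, 1 fell and 4 did not pass. The gene that fell was Il10rb, a subunit shared by the receptors for interleukin 10 and interferon lambda, at -0.29 (adjusted p = 0.0341), while Ifnar1, a subunit of the type I receptor, stood at -0.14 (0.154). Of 8 genes of JAK-STAT signalling the kinase gene Jak2, which serves the interferon gamma receptor, fell by 0.33 (adjusted p = 0.0375), 0 rose and 7 did not pass, with Jak1 at -0.09 (0.518) and Tyk2 at -0.21 (0.484). The call of Jak2 was lost in each of the 9 fits that left out an array or an experiment (adjusted p up to 0.316). Of the 6 other interferon regulatory factor genes limma called 0, with 0 at an unadjusted p under 0.05, and with the experiment as a block it called 2 higher and 1 lower. Irf3, the factor that starts interferon transcription after sensing, stood at 0.03 ± 0.497 (SE; adjusted p = 0.980).

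Of 15 genes that sense nucleic acid or relay that signal, 1 rose, 2 fell and 12 did not pass, which is 20% called against 19.5% of all genes. The kinase gene Ikbke, which phosphorylates Irf3 and Irf7, rose by 0.52 (limma's adjusted p = 0.00385). Sting1, the adaptor of DNA sensing, fell by 0.40 (0.0187), and Tlr7, an endosomal receptor of single-stranded RNA, by 0.29 (0.00708). The RNA sensor gene Ifih1 stood at -0.16 (0.0884, and 0.0112 with the experiment as a block), its adaptor Mavs at 0.07 (0.535) and the kinase gene Tbk1 at -0.31 (0.110, and 0.0419 with the block). Of 10 negative regulators 2 rose, 0 fell and 8 did not pass. Usp18, a protease that removes ISG15 and blocks the type I receptor, rose by 0.51 (0.00408), and Nlrc5, which is also known as an activator of MHC class I genes, by 0.27 (0.0422). The call of Usp18 was not kept in the deposited values (difference of 0.23, adjusted p = 0.172), and Nlrc5 was at -0.01 there. Tlr7, Ifih1 and Nlrc5 each had a single deposited value within each group. Their arrays differed inside a group only after the normalization, so their adjusted p does not rest on a spread in the deposited values.

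Of 48 other antiviral genes induced by interferon 9 rose, 5 fell and 34 did not pass, with a median change of 0.06. That is 29.2% called, against 19.5% of all genes. Of the 48, 43 were dimmer than the median gene, and 28.6% of all such dimmer genes passed. Besides Oas1f and Oas1i the largest rise was that of Parp9, an ADP-ribosyltransferase family gene, at 0.52 (limma's adjusted p = 0.00408). The largest falls among the genes that passed were those of Ifi44 at -0.45 (0.00707), the guanylate-binding protein gene Gbp2 at -0.32 (0.0287) and the antibody-receptor and ubiquitin ligase gene Trim21 at -0.28 (0.0129). Samhd1, a nucleotide hydrolase that limits viral replication, stood at -0.41 ± 0.169 (SE; adjusted p = 0.145) and passed with the experiment as a block (0.00363), and it was named after its values were seen. Parp9, Ifi44 and Gbp2 each had a single deposited value within each group. The variation behind their adjusted p therefore arose only in the quantile normalization. Of 16 antigen presentation genes 3 rose, 1 fell and 12 did not pass, which is 25% called. Cd74, the invariant chain of MHC class II, rose by 0.57 (0.00430), the peptide transporter gene Tap1 by 0.28 (0.0481) and its partner Tapbp by 0.27 (0.0242), and the peptidase gene Erap1 fell by 0.37 (0.0465). Tap1 and Tapbp both had a deposited difference of -0.01.

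**Figure D5:**
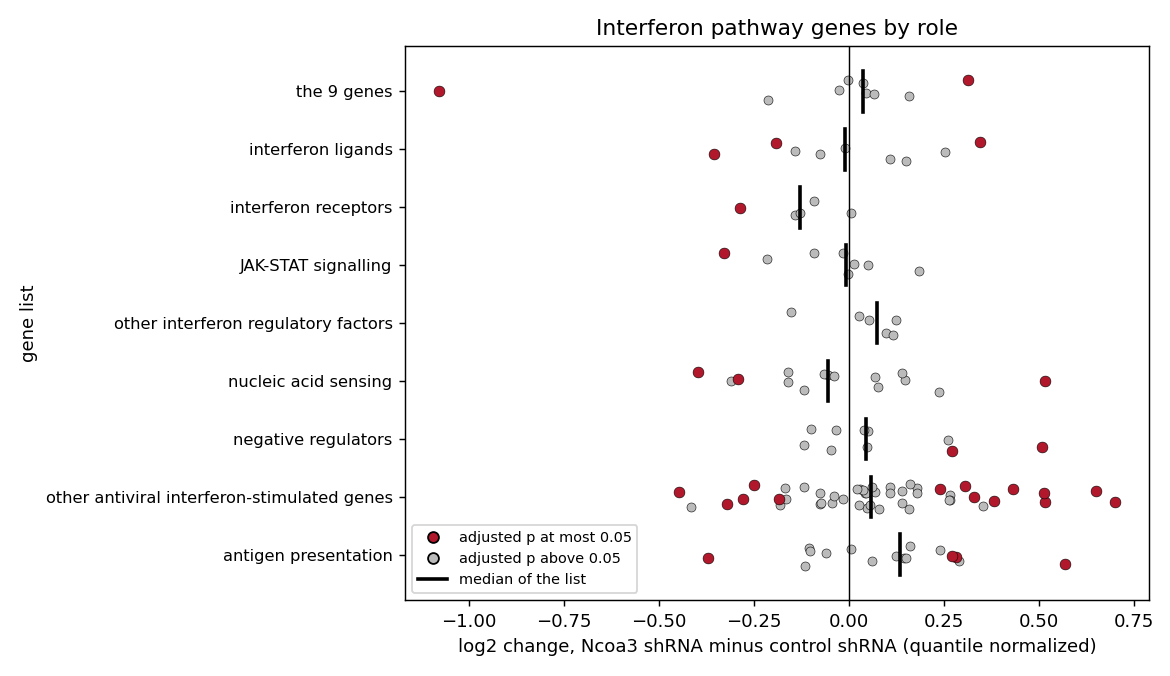
Log2 change after quantile normalization (Ncoa3 shRNA minus control shRNA, horizontal axis) of each measured gene, in rows by role, with red points for limma's adjusted p at most 0.05 and a black bar at the median of the row. The medians of the rows run from -0.13 for the receptors to 0.13 for antigen presentation, and Oas1a at -1.08 is the lowest point.

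The experiments differed from each other in Stat2 and Irf9. In experiment 3, Stat2 had deposited log2 signals of 8.90 and 9.18, against 9.34 to 9.90 in experiments 1 and 2, and Irf9 had 7.87 and 7.97, against 8.07 to 8.49. Both genes were thus lower on both arrays of experiment 3 than on any other array. The split of experiment 3 from experiments 1 and 2 was chosen with earlier results of these data known, so its adjusted p-values are descriptive. In a fit with the shRNA group and the experiment, after quantile normalization, experiment 3 minus the mean of experiments 1 and 2 was -0.44 ± 0.0648 (SE) for Stat2 (limma's adjusted p = 0.0211) and -0.41 ± 0.0909 (SE) for Irf9 (0.0416). By that test 5 of the 9 genes were lower and 0 higher, where 37.1% of all genes passed, 30.2% lower and 6.91% higher. An F test for any difference over the 3 experiments called 3 of the 9, Mx2, Stat2 and Irf7, and 18.8% of all genes. The other 3 were Oasl, Mx2 and Irf7, whose deposited values hardly differed between experiments, and that of Irf7 was the same in all of them, so their differences come from the normalization. In the deposited values the fit called 0 of the 9 genes, with 2 at an unadjusted p under 0.05, and the differences were -0.53 (adjusted p = 0.0539) for Stat2 and -0.36 (0.150) for Irf9. Without any single array of experiments 1 or 2, limma called 0 of the 9 genes, with 5 at an unadjusted p under 0.05. Irf3 had deposited log2 signals of 7.43 and 7.49 in experiment 3, against 8.36 to 9.06 in experiments 1 and 2. It was chosen for this comparison after its values were seen.

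All 6 measured astrocyte markers were higher in experiment 3, by a median of 0.42, and their summed level (log2 of the summed quantile-normalized signals) was 13.09 to 13.11 in experiment 3, against 12.49 to 12.76 in experiments 1 and 2. The summed level of 13 microglia markers was 10.28 to 10.53 in experiment 3, against 10.24 to 10.38. The part of these cells in the difference of Stat2 and Irf9 was not tested. In RNA of a whole culture, fewer cells of a type and less RNA per cell cannot be told apart.

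Markers of other cells were compared between the shRNA groups too. Apart from the 2 brightest of each list, those named here were chosen because they passed the test, with or without the experiment as a block. The 11 neuron markers had a summed level of 15.72 to 15.81 with Ncoa3 shRNA and 15.74 to 15.83 with control shRNA. The brightest were Snap25, which encodes a vesicle release protein, with deposited means of 13.21 with Ncoa3 shRNA and 13.22 with control shRNA, and Syn1, a synapsin, with 12.88 and 12.91. Of the 11, 0 rose and 1 fell, Gad2, the GABA-synthesizing enzyme of inhibitory neurons, by 0.42 (limma's adjusted p = 0.0349), with -0.34, -0.62 and -0.31 in experiments 1, 2 and 3. With the experiment as a block 0 rose and 2 fell, where 20.8% of all genes rose and 18.6% fell. The falls were those of Gad2 and of Rbfox3, a neuronal RNA-binding protein gene, at -0.15 (adjusted p = 0.0206, and 0.144 without the block). Rbfox3 stood at -0.14, -0.16 and -0.15 in experiments 1, 2 and 3.

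Microglia, the immune cells of the brain, were represented by 13 markers, all of them dimmer than the median gene. After quantile normalization their summed level was 10.33 to 10.53 with Ncoa3 shRNA and 10.24 to 10.28 with control shRNA, so the groups did not overlap. The summed levels of the fibroblast and endothelial markers, given below, did not overlap either. Of all single genes after quantile normalization, 19.0% lay wholly lower with Ncoa3 shRNA and 21.5% wholly higher. Of the 13, 3 rose and 1 fell, which is 30.8% called, against 28.6% of all genes dimmer than the median gene. The fractalkine receptor gene Cx3cr1 rose by 0.99 ± 0.199 (SE; limma's adjusted p = 0.0205), the complement gene C1qb by 0.46 (0.0112) and Aif1, which encodes the marker Iba1, by 0.43 (0.0113), and the leukocyte phosphatase gene Ptprc fell by 0.21 (0.0462). Ptprc had a single deposited value within each group, so its adjusted p rests on a spread that the normalization introduced. With the experiment as a block 5 rose and 3 fell, where 20.8% of all genes rose and 18.6% fell. The falls were those of Ptprc, the complement gene C1qc (-0.20, adjusted p = 0.00808) and Cd68 (-0.16, 0.0160). The brightest of the list, C1qa and Trem2, stood at 0.12 and 0.15 and did not pass. In the deposited values the median difference of the 13 was -0.17. There limma called 1 higher and 4 lower without the block, where 3.97% of all genes were higher and 43.3% lower. The direction of this list thus depended on how the offset between the groups was treated.

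The summed level of 6 astrocyte markers was 12.49 to 13.09 with Ncoa3 shRNA and 12.67 to 13.11 with control shRNA, and limma called 0 of them, with 0 at an unadjusted p under 0.05. With the experiment as a block it called 1, the glutamate transporter gene Slc1a2, as lower (-0.29, adjusted p = 0.0235). S100b, also among the 2 brightest, stood at -0.04 (limma's adjusted p = 0.919 without the block). For 6 fibroblast markers the summed level was 11.47 to 11.79 with Ncoa3 shRNA and 11.03 to 11.38 with control shRNA, with 1 rise, that of Dcn (decorin) by 0.52 (adjusted p = 0.0385). Dcn was the brightest, with a mean deposited signal of 10.78, so it weighed most in the sum. Lum, also among the 2 brightest (8.20), stood at 0.57 ± 0.398 (SE; adjusted p = 0.377). With the experiment as a block 3 rose and 1 fell, where 20.8% of all genes rose and 18.6% fell. The rises were those of Dcn, Col1a2 (0.13, adjusted p = 0.0446) and Col3a1 (0.18, 0.0105), and the fall that of Col1a1 (-0.21, 0.0241). Col3a1 had a single deposited value within each group. For 8 oligodendrocyte lineage markers the summed level was 10.97 to 11.15 with Ncoa3 shRNA and 10.99 to 11.14 with control shRNA. Of these 1 rose, Pdgfra of the precursor cells by 0.32 (adjusted p = 0.0252 without the block), and 2 fell, the transcription factor gene Sox10 by 0.47 (0.0050) and the myelin gene Mog by 0.26 (0.0228). The brightest of this list, Mbp and Olig1, stood at 0.09 (0.434) and 0.23 (0.475) and did not pass. That is 37.5% called, against 19.5% of all genes. With the experiment as a block 2 rose and 2 fell, the further rise being that of Olig2 (0.17, adjusted p = 0.0388). For 4 endothelial markers the summed level was 8.30 to 8.40 with Ncoa3 shRNA and 8.40 to 8.55 with control shRNA, and 1 fell, the receptor gene Flt1 by 0.37 (0.0176), while the junction gene Cldn5 stood at -0.12 (0.291, and 0.0177 with the experiment as a block). Tek, also among the 2 brightest, stood at -0.08 (0.469). Pdgfra and Flt1 each had a single deposited value within each group, with deposited differences of 0.04 and -0.66, so their spread comes from the normalization alone. No marker is at 0 on an array of this kind, and the part of these cells in the changes of Oas1a and Mx2 was not tested.

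The genes whose pattern over the 6 arrays was most like that of Oas1a, among genes brighter than the median gene, were Cnot6, Spast, Ncoa3, Tia1 and Dusp18. Likeness was measured as the root mean square distance between quantile-normalized log2 values, each gene centred on its own mean over the 6 arrays, and it was 0.0550, 0.144, 0.144, 0.162 and 0.165. The values were not scaled, so a small distance requires a fall of a size near that of Oas1a. In the same order these genes changed by -1.15, -0.87, -0.97, -0.87 and -0.78. Cnot6, a deadenylase subunit, had deposited means of 8.33 ± 0.0643 with Ncoa3 shRNA and 9.74 ± 0.0760 with control shRNA (SD, n = 3 each). Among the other 8 interferon-induced genes the closest to Oas1a was Mx1, at a distance of 0.442, and 2553 of the 18166 genes were closer.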

How the data were processed

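Total RNA of 6 cultures was hybridised to Affymetrix arrays, 1 per sample. The authors deposited log2 signals of 36685 probe sets. Per the submitters' processing notes the software was Affymetrix Expression Console (version and summary method not given in the sources used here). Symbols came from the platform annotation, which gave 18511 probe sets 1 symbol, 575 several and 17599 none. The brightest probe set stood for each of 18166 genes. Values were quantile normalized and fitted in R 4.3.3 by the lmFit and eBayes functions of limma 3.58.1, eBayes with a variance trend, with Benjamini-Hochberg adjustment at 0.05. Experiments were compared in a fit with group and experiment. The labels place same-numbered arrays in 1 experiment. After quantile normalization, their deviations from the group means correlated at r = 0.723, 0.549 and 0.783. Correlations between differently numbered arrays are not given here, and the normalization itself adds to the deviations, so the pairing rests on the labels. No label says whether an experiment is a separate animal preparation, so p-values measure only the spread between these samples. On simulated data for the group comparison, 87 of 200 changes of 0.5 and 160 of 200 changes of 1 (log2) were recovered among 18166 genes. The genes, the lists and the split of experiment 3 from experiments 1 and 2 were chosen with earlier results of these data known. Named pathway genes are up to 3 called genes in each direction with the largest change in each list, plus Ifnar1, Jak1, Tyk2, Irf3, Ifih1, Mavs and Tbk1, the 2 brightest markers of each marker list and the 5 genes most like Oas1a. Alternatives were other scalings, the experiment as a block, no variance trend, brighter genes alone, all probe sets and left-out arrays.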

Additional observations from a re-analysis of the deposited data

How the results depend on the processing

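Oas1a was lower in all 17 alternatives, between -1.36 and -1.03, and Mx2 higher in all 17, between 0.03 and 0.37. Of the 9 genes limma called 2, against 6 in the deposited values, 4 with the experiment as a replicate block, 6 with that block in the deposited values, and 0 of 2 (0 at an unadjusted p under 0.05) among brighter genes alone. Leaving out arrays or experiments gave 0 to 5. Over all genes the 3548 calls became 8579 in the deposited values, 1868 after centring, 7147 with the replicate block, 10932 with that block in the deposited values, 433 of 9083 among brighter genes alone, 1426 to 3867 with 1 array left out, and 223, 0 and 8354 without experiment 1, 2 or 3 (3071 at an unadjusted p under 0.05 without experiment 2). For experiment 3 against 1 and 2, the 6737 calls became 2061 in the deposited values, 13028 after centring, 3911 with cyclic loess, 686 with no term for shRNA, 3017 among brighter genes, and 0 to 6077 with an array left out. Of the 9 genes 5 were called there, against 0 in the deposited values, 2 with loess, 0 with no term for shRNA (2 at an unadjusted p under 0.05), 2 among brighter genes, and 0 to 6 with an array left out. Signs turned in the deposited values, with or without the block, for Ifit2 (-0.12), Ifit3 (-0.23), Stat2 (-0.22), Irf7 (-0.22), Irf3 (-0.26), Mavs (-0.20), Nlrc5 (-0.015), Tap1 (-0.0066) and Tapbp (-0.0069). With 1 array left out, values ran from -0.0015 to 0.071 for Ifit3, -0.45 to 0.40 for Irf3, -0.22 to 0.069 for Irf9, -0.059 to 0.041 for Oasl, -0.12 to 0.22 for Stat2 and -0.33 to 0.0084 for Tyk2, turning sign. Without experiment 1, Irf9 (0.031), Oasl (0.013) and Stat2 (-0.032) turned, without experiment 2 Irf9 (0.022) and Jak1 (0.018), and without experiment 3 Ifit3 (-0.018) and Irf3 (-0.079). The experiment difference turned in the deposited values for Ifit2 (0.032), Mx1 (0.13), Mx2 (0.0015) and Oas1a (0.031), with loess for Mx1 (0.023), and with an array left out for Mx1 (-0.083 to 0.041) and Ifit3 (-0.051 to 0.15). The cause was not tested. Signals of most of the 9 genes were dimmer than the median gene, where more genes passed, and this limits the weight of each call.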
